A study of Homo sapiens with 6 samples.

Results

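The Notch receptors NOTCH1, NOTCH2 and NOTCH3, the ligands JAG1, JAG2 and DLL1, the coactivator MAML2 and the target genes HES1, HES4 and HEY1 were read out in control and VprBP-depleted cells. These 10 genes were chosen by symbol as receptors, ligands, a coactivator and targets of the Notch pathway. The rule itself uses no measured value, but earlier results of these data were known when the genes were chosen. They account for 10 of the 21494 genes of the deposited count table. All 10 had a row and passed the filter on low counts, which left 16756 genes for testing. The 6 RNA-seq samples are labelled as G361, a human melanoma line, 3 of them with genotype WT carrying a control shRNA (Control sh) and 3 with a DCAF1 knockdown (VprBP sh), DCAF1 being the gene of VprBP. Per the methods of the study, the shRNA to VprBP was delivered by lentivirus with puromycin selection. For its Western blots of G361, a legend describes transfection with a nontargeting control shRNA or that to VprBP. Whether the control shRNA of the RNA-seq samples was delivered and selected in the same way is not stated. The knockdown rests on a single shRNA sequence, so that its samples share any effect of that sequence. For all samples the labels also name LD611 as the cell source. That name differs from G361, the line the study gives for its RNA-seq. Which of these names describes the cells was not tested.

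Notch receptors are transmembrane proteins that are activated by ligands of the Jagged and Delta families on neighbouring cells. Ligand binding exposes the receptor to cleavage by ADAM10 and then by the gamma-secretase complex, and the released intracellular domain moves to the nucleus, where it joins the DNA-binding protein RBPJ and a Mastermind coactivator to switch on genes such as those of the HES and HEY repressors. In skin, the pathway is known both for maintaining melanocyte stem cells and for driving keratinocyte differentiation.

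Total counts ran from 18195926 to 26883925 per sample, with a mitochondrial share of 1.96% to 1.98% in the Control sh samples and 4.10% to 4.48% in the VprBP sh samples. DCAF1 itself had 797, 971 and 838 normalized counts in the Control sh samples and 760, 507 and 481 in the VprBP sh samples, a log2 fold change of -0.58 (SE 0.17, adjusted p = 0.0125 by the quasi-likelihood test of edgeR). With library size alone it was -0.37 (adjusted p = 0.0851 from edgeR), and with replicates 2 and 3 of each group summed -0.46 (adjusted p = 0.0839 from edgeR). Normalized counts are counts scaled by upper quartile factors. Calls required both an adjusted p-value under 0.05 and more than a 2-fold change, and SE is the standard error of a log2 fold change. The 4 melanocyte-lineage markers with a row (of 8 listed) summed to 199 to 236 normalized counts in the Control sh samples and 244 to 308 in the VprBP sh samples, nearly all of it MITF and PMEL, while MLANA and TYRP1 had at most 5 counts in any sample. The 8 urothelial markers with a row (of 10) summed to 94822 to 106575 in the Control sh samples and 30189 to 33740 in the VprBP sh samples. Nearly all of that sum came from KRT5 and KRT7, keratins that other epithelia also express, while UPK1A had at most 5 counts in any sample. Within that list KRT5 fell, UPK1B was at 0 counts in every VprBP sh sample, and GATA3 had at most 7 counts in Control sh against 1334 to 1873 in VprBP sh. The 3 endothelial markers summed to 618 to 687 and to 29.0 to 39.1 normalized counts, CDH5 reaching at most 3 counts in any VprBP sh sample. In cells labelled as melanoma, MLANA and TYRP1 were thus nearly absent, and SOX10, TYR, DCT and S100B had no row. MITF, the regulator of the melanocyte lineage, had 154 to 312 counts in each sample. Per kb of exon, MITF ranked 10811 of 13880 protein-coding genes in Control sh and 10234 in VprBP sh. The urothelial list was divided, with 3 of 7 tested genes called higher in VprBP sh (GATA3, PPARG and FOXA1) and 3 lower (KRT5, UPK1B and UPK2). Of all genes tested, 24.5% were called higher and 22.0% lower. Among the endothelial markers, CDH5 and VWF were called lower and PECAM1 was not called (log2 fold change 0.20). The part of these markers in the changes of the Notch genes was not tested. In bulk RNA, fewer cells of a type and less RNA per cell cannot be told apart.

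Of the 10 genes, 8 were called, which is 80.0% against 46.4% of all genes tested. The 10 were chosen with earlier results of these data known, and the wider list of Notch genes given below was called at 43.1%. The called genes were evenly divided, with 4 higher in VprBP sh, against 24.5% of all genes, and 4 lower, against 22.0%. NOTCH3, MAML2, HES1 and HES4 rose, while NOTCH1, JAG1, JAG2 and DLL1 fell. The median absolute log2 fold change was 2.23 for these genes and 0.92 for all genes tested. The 3 values of each group did not overlap in 9 of the 10 genes, the exception being HEY1, and neither did those of 79.5% of all genes tested. Without the limit on fold change, 76.4% of all genes tested had an adjusted p-value under 0.05, so that passing this alone sets a gene little apart from the background here. An exact two-sided permutation test of 3 samples against 3 cannot give a p below 0.1, and 0.1 was its value for each gene without overlap.

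**Figure D1:**
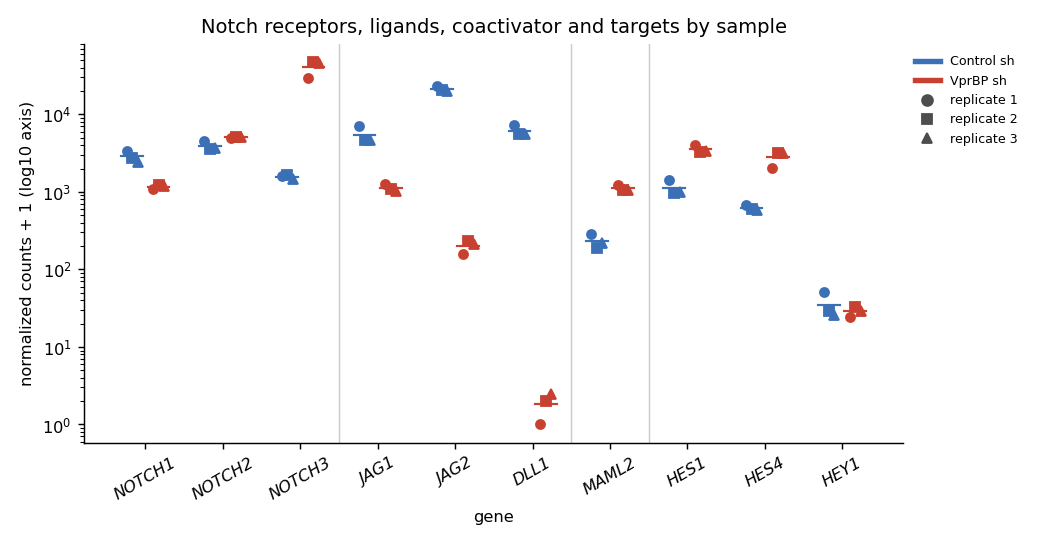
Normalized counts plus 1 of the 10 Notch genes on a log10 axis, with 1 point per sample (blue for Control sh, red for VprBP sh, the marker shape giving the replicate) and a line at each group mean. NOTCH3 sits between 29877 and 47224 in VprBP sh and between 1476 and 1637 in Control sh, DLL1 drops to between 0 and 1.5, and HEY1 is the gene whose groups overlap.

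Among the receptors, NOTCH3 showed the largest change. NOTCH3 (ENSG00000074181.9, minus strand of chromosome 19, 15159038 to 15200995 on hg38) is a receptor best known from vascular smooth muscle. It had 1586, 1637 and 1476 normalized counts in Control sh replicates 1, 2 and 3 and 29877, 47224 and 45405 in VprBP sh. Each VprBP sh value was far above each Control sh value, although replicate 1 of VprBP sh lay below the other two. The mean went from 1566 ± 82 to 40835 ± 9534 (SD, n = 3), which is a log2 fold change of 4.70 (SE 0.18, edgeR adjusted p = 1.94e-08), or 26.1-fold. NOTCH3 thus ranked 610 among the 4097 genes called higher. Per kb of exon, which permits comparison between genes, its level of 4340 ± 1013 normalized counts ranked 103 among 13880 protein-coding genes in VprBP sh, against rank 5357 in Control sh.

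NOTCH1 (ENSG00000148400.13, minus strand of chromosome 9, 136494433 to 136546048), the founding member of the family and an oncogene in T-cell leukaemia, moved the opposite way. It had 3387, 2771 and 2457 normalized counts in the Control sh samples and 1089, 1238 and 1173 in the VprBP sh samples. The groups did not overlap, and the log2 fold change was -1.30 (SE 0.12, edgeR adjusted p = 7.19e-06). NOTCH2 (ENSG00000134250.21, minus strand of chromosome 1, 119911553 to 120100779), a receptor widely expressed in epithelia, had 4487, 3538 and 3670 normalized counts in the Control sh samples and 5013, 5164 and 5172 in the VprBP sh samples. Here the lowest VprBP sh sample was above the highest Control sh sample, but the difference was small, with a log2 fold change of 0.39 (SE 0.10, edgeR adjusted p = 0.00511), which is 1.31-fold and not a call. With replicates 2 and 3 of each group summed into a single sample, this became 0.32 (adjusted p = 0.0972 from edgeR). NOTCH2 shares nearly identical sequence with the NOTCH2NL genes, so that short reads may be divided among them and its counts are uncertain to that extent. NOTCH4, the remaining receptor, had between 4 and 17 counts in every sample and did not pass the filter.

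The receptors therefore made up a different mix in each group. In Control sh, NOTCH2 and NOTCH1 stood at 233 ± 30.7 and 229 ± 37.7 normalized counts per kb of exon, a difference within their spread, and NOTCH3 at 166 ± 8.7. In VprBP sh the order was NOTCH3 at 4340 ± 1013, NOTCH2 at 306 ± 5.4 and NOTCH1 at 93.1 ± 6.0. NOTCH3 made up 23.8%, 28.7% and 27.4% of the summed level of the 3 receptors per kb in Control sh and 89.2%, 92.5% and 92.3% in VprBP sh. Its mean share was higher by 64.7 percentage points, with p = 0.1 in the exact two-sided permutation test, the smallest 3 samples against 3 allow. The summed level of the receptors went from 628 ± 69.9 to 4739 ± 1024 per kb, a ratio of 7.54. A share within a sample does not depend on the scaling between samples.

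All 3 ligands fell. DLL1 (ENSG00000198719.9, minus strand of chromosome 6, 170282206 to 170306565), a Delta-type ligand, had 6220, 5114 and 5925 counts in the Control sh samples, but 0, 1 and 2 in the VprBP sh samples. Summed over the group this is 17259 counts against 3, so that DLL1 was 6412-fold lower per unit of scaled depth in VprBP sh, with an exact 95% interval of 2194 to 31096 that covers counting error only. The fitted log2 fold change was -12.48 (SE 0.27, edgeR adjusted p = 9.45e-10), ranking 89 among the 3681 genes called lower, and it reached -13.16 when VprBP sh replicate 3 was left out. Such a fit depends on the small number edgeR adds to each count. In Control sh the gene ranked 538 of 13880 protein-coding genes per kb. DLL1 overlaps the protein-coding gene FAM120B, which lies on the other strand and had 983 normalized counts in the Control sh samples and 449 in the VprBP sh samples.

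JAG2 (ENSG00000184916.9, minus strand of chromosome 14, 105140982 to 105168824), a Jagged-type ligand, was the most abundant ligand in Control sh. It had 23344, 20538 and 19883 normalized counts there and 156, 232 and 209 in VprBP sh. Even the highest VprBP sh sample was far below the lowest Control sh sample, with a log2 fold change of -6.73 (SE 0.16, edgeR adjusted p = 1.47e-09), or 107-fold. Its rank per kb went from 214 to 10287 of 13880. JAG1 (ENSG00000101384.12, minus strand of chromosome 20, 10637684 to 10673999), the Jagged ligand mutated in Alagille syndrome, had 7121, 4709 and 4630 normalized counts in the Control sh samples and 1261, 1085 and 1012 in the VprBP sh samples. Control sh replicate 1 was the highest of the samples, and the groups did not overlap. The log2 fold change was -2.29 (SE 0.17, edgeR adjusted p = 1.64e-06), or 4.91-fold.

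The ligand mix changed as well. In Control sh, JAG2 stood at 3323 ± 287 normalized counts per kb, DLL1 at 1605 ± 245 and JAG1 at 590 ± 152, each separated from the next by more than its spread. In VprBP sh, JAG1 was highest at 120 ± 13.7, followed by JAG2 at 31.1 ± 6.0 and DLL1 at 0.225 ± 0.205. JAG1 made up 12.2%, 9.79% and 9.81% of the summed ligand level per kb in Control sh and 84.7%, 76.2% and 76.7% in VprBP sh (exact two-sided permutation p = 0.1, the smallest possible). This larger share came with a lower level, since JAG1 itself fell and the summed level of the 3 ligands went from 5518 ± 682 to 152 ± 9.2 per kb, 36.4-fold lower.

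**Figure D2:**
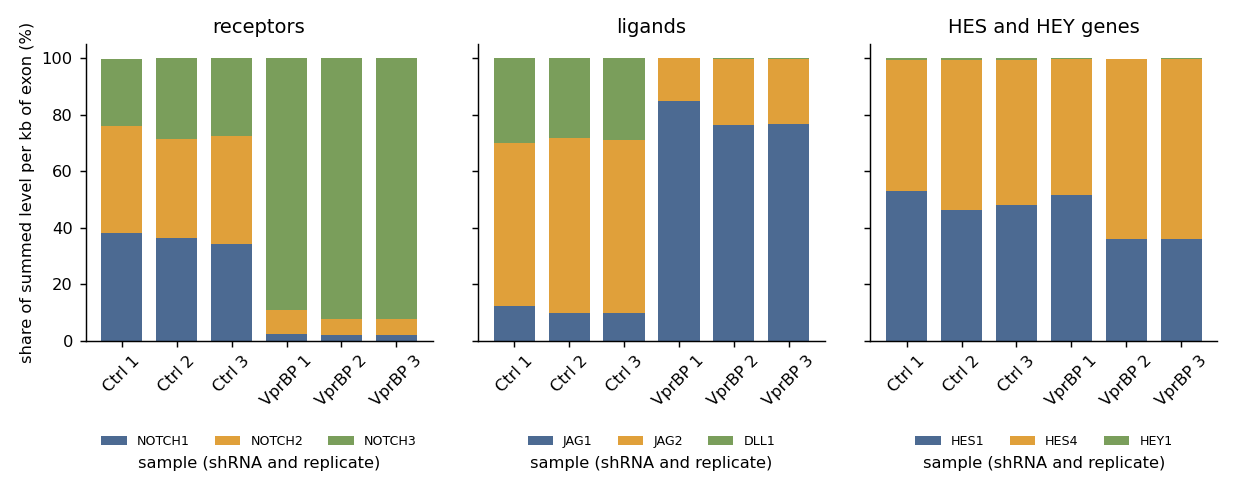
Share of each gene in the summed level per kb of exon of its family, in percent, with 1 stacked bar per sample. NOTCH3 takes 89.2% to 92.5% of the receptor level in the VprBP sh samples against 23.8% to 28.7% in Control sh, JAG1 takes 76.2% to 84.7% of the ligand level against 9.79% to 12.2%, and the HES1 and HES4 shares overlap between the groups.

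Downstream of the receptors, MAML2 (ENSG00000184384.14, minus strand of chromosome 11, 95976598 to 96343195) encodes a Mastermind coactivator of the nuclear complex, known for its fusion with CRTC1 in mucoepidermoid carcinoma. It had 286, 187 and 215 normalized counts in the Control sh samples and 1237, 1051 and 1071 in the VprBP sh samples. All VprBP sh samples were above all Control sh samples, with a log2 fold change of 2.29 (SE 0.16, edgeR adjusted p = 9.23e-07), or 4.88-fold.

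HES1 and HES4 encode basic helix-loop-helix repressors, HES1 being a classical direct target of the Notch intracellular domain and RBPJ. The stretches before their starts are shown because both genes rose and because RBPJ is known to bind sites with the core TGGGAA. Promoter entries of RefSeq (GRCh38.p14) matched 8 of the 10 genes, all but DLL1 and HEY1. The 250 bases before the start in each entry were searched on both strands for TGGGAA and for a longer form, CGTGGGAA, which contains it. TGGGAA was found in 2 of the 8, HES1 and HES4, against 20.8% of all 35116 promoter entries. CGTGGGAA was found in 0 of the 8, against 0.72%. The first HES1 match and the HES4 match lie within TGTGGGAA, which differs from CGTGGGAA only in its first letter and was not counted. The HES1 stretch is chr3:194135898-194136147 on the plus strand and the HES4 stretch is a 30-base window at chr1:1000152-1000181 on the minus strand, both written 5′ to 3′ with TGGGAA in capitals.
HES1: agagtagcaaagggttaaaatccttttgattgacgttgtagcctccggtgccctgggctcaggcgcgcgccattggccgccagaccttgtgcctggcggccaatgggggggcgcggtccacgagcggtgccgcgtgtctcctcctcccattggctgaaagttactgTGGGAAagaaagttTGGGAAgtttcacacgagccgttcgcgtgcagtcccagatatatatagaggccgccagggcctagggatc
HES4: ggcgagtgTGGGAAagaatgcggagccggg
In HES1 the 2 matches begin 84 and 70 bases before the start, and in HES4 the match begins 76 bases before the RefSeq start, all on the gene's own strand. The RefSeq start of HES4 lies 75 bases inside the gene span of the count table, so that the match begins 1 base before the start of that span. The RefSeq starts of JAG2 and NOTCH2 also lie inside those spans, by 48 and 31117 bases, and those of the other 5 genes equal the start of the span. The longest run of letters common to the 250-base stretches of HES1 and HES4 was TGTGGGAAAGAA, a run of 12 letters around the first match. It occurred on either strand in 6 of the 35116 promoter entries, HES1 and HES4 included. Because the run was picked by comparing these stretches, its rarity is not a test of a shared element. These matches describe the letters of the stretches and not binding. GC content of the 8 stretches was 59.2% to 81.6%, the median of all entries being 58.0%.

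HES1 (ENSG00000114315.4, plus strand of chromosome 3, 194136148 to 194138732) had 1424, 959 and 1000 normalized counts in the Control sh samples and 3977, 3302 and 3347 in the VprBP sh samples. Replicate 1 was the highest sample of either group, and the groups were apart, with a log2 fold change of 1.65 (SE 0.15, edgeR adjusted p = 6.83e-06), or 3.14-fold. HES4 (ENSG00000188290.11, minus strand of chromosome 1, 998962 to 1000172), a relative of HES1 that lacks a mouse counterpart, had 672, 603 and 583 normalized counts in the Control sh samples and 2022, 3191 and 3208 in the VprBP sh samples. As for NOTCH3, replicate 1 was the lowest VprBP sh sample. The log2 fold change of HES4 was 2.18 (SE 0.17, edgeR adjusted p = 2.27e-06), or 4.54-fold. HEY1 (ENSG00000164683.18, minus strand of chromosome 8, 79762371 to 79767857), a related repressor and Notch target in the cardiovascular system, was low in all samples, with 43, 26 and 26 counts in the Control sh samples and 21, 31 and 37 in the VprBP sh samples. Its groups overlapped, and its log2 fold change of -0.28 (SE 0.34, edgeR adjusted p = 0.473) turned to 0.09 (adjusted p = 0.803 from edgeR) without Control sh replicate 1. At this depth no difference in HEY1 was detectable.

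Per kb of exon, HES4 and HES1 stood at 554 ± 41.8 and 548 ± 125 normalized counts in Control sh, which their spread does not separate, and at 2511 ± 608 and 1720 ± 183 in VprBP sh, where replicate 1 had the reverse order. HEY1 stood at 6.24 ± 2.48 and 5.10 ± 0.80. The share of HES4 in the sum of the 3 genes was 46.2%, 53.4% and 51.5% in Control sh and 48.3%, 63.9% and 63.8% in VprBP sh, a difference of 8.29 percentage points with overlapping groups (exact two-sided permutation p = 0.3). Without VprBP sh replicate 1 that difference was 13.5 points. The summed level of the 3 genes went from 1108 ± 168 to 4236 ± 426 per kb, a ratio of 3.82.

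**Figure D3:**
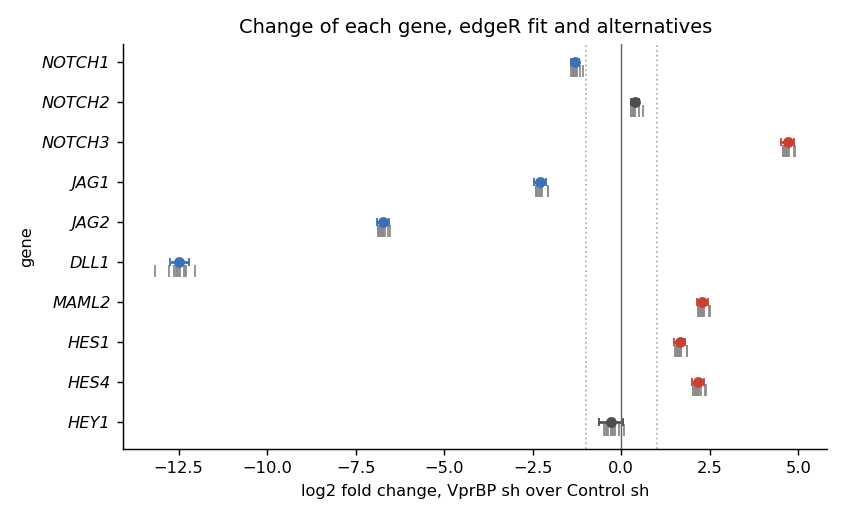
Log2 fold change of VprBP sh over Control sh for each gene, with a bar of 1 standard error from edgeR (red called higher, blue called lower, grey not called), the value under each alternative as a grey tick beneath it and dotted lines at a 2-fold change. The ticks stay on the side of the main value for every gene except HEY1, whose value is -0.28 and reaches 0.09 in 1 alternative.

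None of these genes changed direction with the scaling, NOTCH3 for example lying between 4.58 with DESeq2 and 4.92 with library size alone, and HEY1 between -0.41 and -0.06 on the log2 scale. Over all genes, scaling by library size alone moved the median change on the log2 scale from 0.08 to 0.29, a shift of 0.21. Relative to the median with upper quartile factors, NOTCH1 stood at -1.38, NOTCH2 at 0.31, NOTCH3 at 4.62 and HES1 at 1.57.

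Other genes of the pathway were taken from a list of 56 genes grouped by role, of which 51 could be tested. Of these, 22 were called, 9 higher and 13 lower in VprBP sh, which is 43.1% against the 46.4% of all genes. The median log2 fold change of the list was -0.50, that of all genes 0.08. DLK1 and HES3 had no row in the deposited count table, and NOTCH4, DLL4 and HES5 had too few counts to be tested.

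Further ligands and the proteins that handle ligands were divided. DLK2, a Delta-like protein without the receptor-binding domain of the classical ligands, fell from 1098 ± 205 to 12.9 ± 2.2 normalized counts (SD, n = 3), which is a log2 fold change of -6.39 (adjusted p = 9.81e-09 from edgeR). DLL3, a ligand that does not activate receptors on other cells, had 24.5 ± 7.6 and 29.0 ± 7.4 (adjusted p = 0.547 from edgeR), and DLL4 had at most 8 counts in any sample. DNER, a neuronal protein related to Delta, was called lower, with 22, 33 and 20 counts against 0, 1 and 0. Of the 4 ubiquitin ligases that promote ligand endocytosis, NEURL1 fell from 1976 ± 27 to 338 ± 48, its paralogue NEURL1B rose from 607 ± 60 to 3013 ± 281, and MIB1 and MIB2 were not called, with log2 fold changes of -0.72 and -0.22.

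Among 5 enzymes that add sugars to the EGF-like repeats of the receptors, 3 fell and 1 rose. POFUT1, which adds the O-fucose on which Fringe proteins build, fell from 4156 ± 75 to 1159 ± 74 normalized counts. The Fringe genes LFNG and MFNG fell from 298 ± 25 to 90.5 ± 25.2 and from 103 ± 10 to 7.4 ± 1.1, whereas RFNG was not called (log2 fold change -0.33). POGLUT1, the O-glucosyltransferase, rose from 156 ± 9 to 343 ± 63 (log2 fold change 1.13, or 0.97 and no call without VprBP sh replicate 1). Among 9 genes of receptor cleavage, FURIN, which processes the receptor precursor, fell from 1696 ± 239 to 650 ± 6, and ADAM10, the protease that cuts ligand-bound receptors, fell from 13870 ± 326 to 3648 ± 102. The gamma-secretase genes PSEN2, NCSTN, APH1A, APH1B and PSENEN were not called, with log2 fold changes between -0.62 for APH1B and 0.08 for PSENEN, the latter turning to -0.01 with TMM factors.

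In the nuclear complex, the other Mastermind genes also rose, MAML1 from 1240 ± 75 to 2586 ± 294 normalized counts and MAML3 from 75.7 ± 8.2 to 182 ± 57. The change of MAML1 (log2 fold change 1.06) lay close to the 2-fold limit and was not a call with TMM factors (0.96), DESeq2 (0.94) or replicates 2 and 3 summed (0.98), nor without VprBP sh replicate 2 (1.00). RBPJ had 2187 ± 68 and 1201 ± 218, a log2 fold change of -0.87 (adjusted p = 0.000125 from edgeR) that is below 2-fold and not a call, although it was -1.03 and a call without VprBP sh replicate 1. Among 8 corepressors, 3 TLE genes, which encode the Groucho proteins that HES repressors recruit, rose. TLE4 had 9, 4 and 3 counts in the Control sh samples and 783, 973 and 1346 in the VprBP sh samples, and TLE2 had 14, 2 and 6 against 1005, 1525 and 2110. TLE3 rose from 3492 ± 136 to 9540 ± 909 normalized counts, while TLE1 was not called (log2 fold change 0.77).

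Of 12 genes that limit or turn over Notch, 9 were not called. NRARP, itself a Notch target that dampens signalling, fell from 2768 ± 188 to 559 ± 56 normalized counts (log2 fold change -2.31, adjusted p = 4.66e-08 from edgeR), the opposite direction to HES1 and HES4. ITCH, a ubiquitin ligase of Notch, fell from 5129 ± 637 to 1907 ± 192. DTX1, a Deltex ubiquitin ligase, was called higher at low counts, 3, 1 and 2 against 15, 19 and 19. NUMB, which inhibits Notch during asymmetric division, had 2332 ± 150 and 2243 ± 159 (adjusted p = 0.578 from edgeR). CCNC, the cyclin that promotes turnover of the intracellular domain, was just inside the limit at a log2 fold change of -0.98 and was called lower with TMM factors (-1.07), with DESeq2 (-1.10) and without Control sh replicate 1 (-1.04) or VprBP sh replicate 1 (-1.13).

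The remaining HES and HEY genes did not follow HES1 and HES4 as a group. HES6, which counteracts HES1, rose from 50.1 ± 6.6 to 613 ± 90 normalized counts (log2 fold change 3.62, adjusted p = 7.20e-08 from edgeR). HES2 fell from 1823 ± 182 to 197 ± 78 (log2 fold change -3.20, adjusted p = 2.40e-06 from edgeR). HEYL had 11, 12 and 18 counts in Control sh and 0 in each VprBP sh sample, at least 4.89-fold lower against a floor of 3 counts per sample. HES7 and HEY2 were not called, and HES5 had at most 6 counts in any sample.

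**Figure D4:**
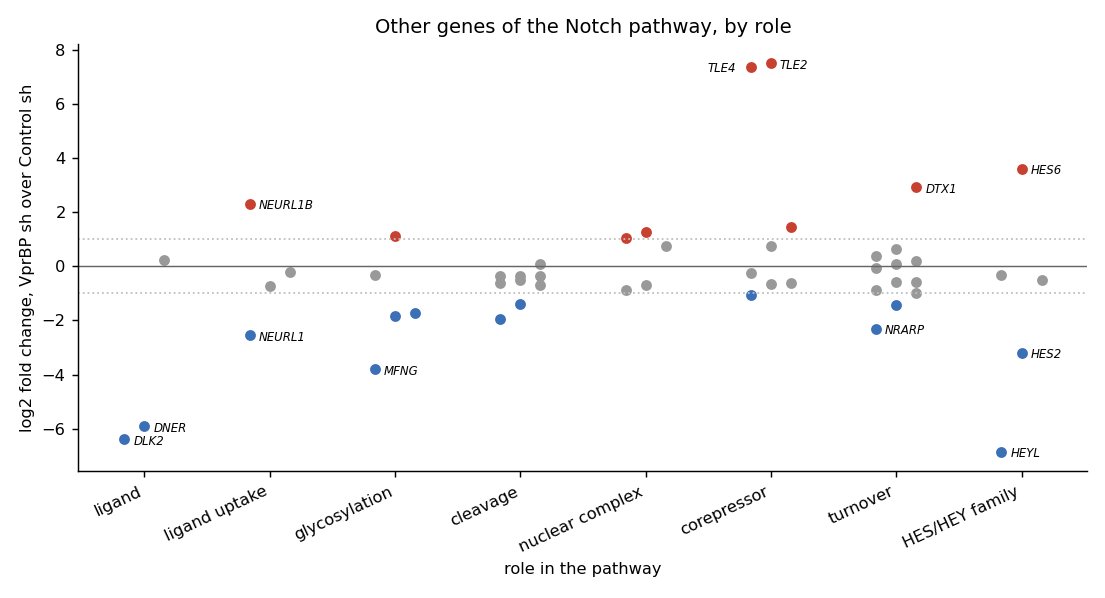
Log2 fold change of VprBP sh over Control sh for the 51 other Notch pathway genes tested, placed by role (red called higher, blue called lower, grey not called, dotted lines at a 2-fold change, names for called genes beyond 4-fold). Called genes lie on both sides in 5 of the 8 roles with tested genes, with TLE2 and TLE4 at the top near 7.51 and 7.39, and the values of DNER and HEYL, which have at most 1 count in any VprBP sh sample, depend on the small number edgeR adds to each count.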

How the data were processed

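RNA-seq was analysed for 6 samples, grouped by the titles in the labels. The authors aligned single-end reads to hg38 with STAR, quantified genes in Partek Flow and deposited these estimated counts per sample, not pooled and without the upper quartile normalization of their methods. The labels name a SMARTER kit and the methods a stranded KAPA kit, and whether counting used strand is not given in the sources used here. The design was written for counts, and values were rounded to whole numbers. Upper quartile factors (quantile 0.75) and the quasi-likelihood test of edgeR 4.0.16 in R 4.3.3 were fitted to the 16756 genes passing its filter (minimum count 10), with no replicate block, in place of Partek's Gene Specific Algorithm. P-values were adjusted over all of these genes by the Benjamini-Hochberg method. Standard errors (SE) were derived from each log2 fold change and its F statistic, as their quotient after taking the root of F. Levels per kb used the union of exons in GENCODE 44, whose spans equal those of the table for all 10 genes. The genes and lists were chosen with earlier results of these data known. Named were the 10 genes, DCAF1, markers, called genes of the wider list whose higher group averaged 100 normalized counts or more, and genes completing a family. FAM120B, DNER, DTX1 and the genes of the wider list that were not called, beyond family completion, were named after their values were seen. Nothing states that replicates were separate cultures, so p-values measure the spread between these samples, which may be technical. Alternatives were TMM factors, library size alone, DESeq2 1.42.0, limma-voom (limma 3.58.1), no filter, a minimum of 10 counts in all samples, a replicate block, leaving out each replicate, summing replicates 2 and 3, and other lengths. The tests were tried on simulated counts. Plots and permutation tests used Python 3.11.15 with scipy 1.17.1. Some genes of the lists are not reported here.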

Additional observations from a re-analysis of the deposited data

How the results depend on the processing

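Of 139 log2 fold changes of the 10 genes under 14 alternatives, 138 kept their direction and their side of the call rule. The exception was HEY1, at 0.09 without Control sh replicate 1, within a range of -0.48 to 0.09 when 1 replicate was left out. The number of the 10 genes called was 8 in each alternative except a minimum of 10 counts in all samples, which removes DLL1 and left 7. That filter also lowered the calls over all genes from 7778 of 16756 to 4690 of 13103, and those of the wider list from 22 to 16. DCAF1 passed an adjusted p of 0.05 in 12 of 14 alternatives, the exceptions being library size alone, at -0.37, and replicates 2 and 3 summed, at -0.46. The difference in the NOTCH3 share was 67.4 percentage points from counts not divided by length. With the replicate number as a block, edgeR called 8 of the 10 genes, 22 of the wider list and 7686 genes in all. Whether samples sharing a number were paired is not known. Their deviations from the group means correlated at -0.168, -0.056 and -0.120 across 13175 genes. Those of samples with different numbers correlated at -0.127 to 0.158. Deviations within groups of 3 samples cannot decide whether the samples were paired. Depth limits HEY1, NOTCH4, DLL4 and HES5, which had at most 43 counts in any sample.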

Other observations

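The genes lying next to the called Notch genes were called at a share near that of all genes. Over the 3 nearest tested protein-coding genes on each side, 48 neighbours in all, 10 were called in the direction of their Notch gene, 9 against it and 29 were not called. MKKS stands on more than 1 row beside JAG1, and its row at a log2 fold change of -11.34 is among the 10. Distances reached 2678 kb, for CNTN5 beside MAML2. The share called was 39.6%, against 46.4% of all genes tested, and the share called in the direction of the Notch gene was 20.8%, where 24.5% of all genes were called higher and 22.0% lower. These neighbours were chosen after the values of the Notch genes were seen. Around DLL1, all neighbours had negative log2 fold changes, from -0.47 for DYNLT2 and ERMARD to -1.13 for FAM120B. Of these only FAM120B was called, while PSMB1 and TBP stood at -0.86 and -0.69. Around MAML2, which rose, all neighbours but CNTN5 had values between 0.41 and 0.88 without a call, and CNTN5 was called lower (-15.63). Beside NOTCH3, CASP14, a caspase of keratinocyte cornification, rose from 146 to 38658 normalized counts (log2 fold change 8.04) at a distance of 101 kb. ILVBL, 33.3 kb away, was called lower (-1.28), and the other neighbours of NOTCH3, SYDE1 and AKAP8 among them, were not called. Beside HES4, the interferon-induced gene ISG15 fell from 1108 to 355 normalized counts.

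The NOTCH2NL genes, partial copies of NOTCH2 that are known from human cortical development, were higher in VprBP sh. NOTCH2NLA went from 608 ± 33 to 1166 ± 132 normalized counts (SD, n = 3), below 2-fold at a log2 fold change of 0.94 (edgeR adjusted p = 3.58e-05). NOTCH2NLB was called, with 66.4 ± 5.4 and 149 ± 23 (log2 fold change 1.16, adjusted p = 0.000318 from edgeR). NOTCH2NLR had 0 counts in each Control sh sample and 20, 3 and 22 in VprBP sh. Since short reads can be assigned among these copies and NOTCH2, their levels are uncertain.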
